A study of Homo sapiens with 6 samples.

Results

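The anti-apoptotic branch of the BCL2 family was followed through its 5 genes, MCL1, BCL2L1, BCL2, BCL2A1 and BCL2L2, in RNA-Seq of RPMI8226 cells, an established human multiple myeloma (MM) line. The genes were found by matching Ensembl identifiers on primary chromosomes to these symbols, and all 5 were present among the 63677 genes of the deposited count table. Cells labelled wild type were exposed for 6 h to 100 nM GST-PTR1, a fusion of glutathione-S-transferase with the proteoglycan tandem repeat 1 of HAPLN1, a link protein of the extracellular matrix, or to 100 nM GST, the fusion partner alone, with 3 biological replicates of each. The fusion protein was made in E. coli, and the GST moiety was common to both treatments. The authors measured bacterial LPS with a Limulus assay. They reported it orders of magnitude below what their NF-κB binding assay can detect in this line. A single cell line, a single dose and a single time were measured, and the reads give mRNA of the bulk culture, in which more expressing cells and more RNA per cell cannot be told apart.

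Proteins of this branch hold the mitochondrial outer membrane intact by binding the BH3 segment of pro-apoptotic relatives, and by holding back the pore-forming effectors BAX and BAK. Each has its own partners: MCL-1 and BFL-1 (the product of BCL2A1, also called A1) bind NOXA, for example, while BCL-2, BCL-XL (from BCL2L1) and BCL-W (from BCL2L2) bind BAD. Plasma cells and many myelomas depend on MCL-1, a protein with a very short half-life. Drugs that mimic the BH3 segment act on individual members, venetoclax on BCL-2, so the make-up of the branch is of interest besides its total. BCL2A1, BCL2 and BCL2L1 are classical target genes of NF-κB.

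The 6 libraries held between 15202503 and 44688737 counts, and TMM factors, which scale libraries to one another, were between 0.883 and 1.10. Libraries are named here by their column in the table (GST003, GST004 and GST005 for GST; PTR002, PTR004 and PTR005 for GST-PTR1), because those numbers match no replicate number of the samples. All 7 plasma cell markers fixed for the identity of the line were detected in every library, from MZB1 at 390.0 ± 67.6 RPKM with GST (SD, n = 3) to PRDM1 at 9.30 ± 1.17, and their summed level was 635 to 831 RPKM with GST and 599.7 to 689 with GST-PTR1. With GST-PTR1, SDC1 (CD138), TNFRSF17 (BCMA) and XBP1 were called lower and PRDM1 and IRF4 were called higher by edgeR (threshold 0.05 on the adjusted p). XBP1 lost its call without GST004 (edgeR adjusted p = 0.0599) or PTR005 (0.0833). Of the T cell markers, 4 of 4 had at most 3 counts in any library, as did 3 of 4 stromal markers, and the summed level of 4 myeloid markers was 0.239 to 0.449 RPKM with GST and 0.197 to 0.329 with GST-PTR1, so markers of other cells were at or near 0.

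In RPMI8226 cells exposed to GST-PTR1, transcripts of 4 of the 5 anti-apoptotic members rose: BCL2A1 about 45.2-fold, BCL2 3.31-fold, MCL1 2.25-fold and BCL2L1 1.84-fold. BCL2L2 had a log2 fold change of -0.36 and was not called. All 5 passed the expression filter. Calls were made with edgeR's quasi-likelihood test, taking adjusted p-values below 0.05, and of the 16926 genes tested 20.6% were called. Those called higher made up 9.15%, against 4 of the 5 members, and those called lower 11.4%, against 0 of the 5. At an unadjusted p under 0.05, 0 members were lower with edgeR as well, and 0 with DESeq2 or limma's voom. With library totals or without PTR002, 1 member, BCL2L2, was lower at that threshold. A rise of at least 2-fold was found for 3 members, BCL2A1, BCL2 and MCL1, against 3.68% of all genes, and a fall of that size for 0 members, against 3.85%. The GST and GST-PTR1 libraries did not overlap for the 4 members that rose, with every GST-PTR1 library higher, as for 19.2% of all genes, while 0 members were lower without overlap, as 21.2% of all genes were. The median log2 fold change of the 5 members was 1.17, and of all genes tested 0.0065. Scaling by library totals moved the median of all genes by -0.20 and the calls over all genes from 1549 higher and 1937 lower to 927 higher and 3788 lower. Under it the same count of 4 members was called, while MCL1 fell under 2-fold, at a log2 fold change of 0.98. Levels are given as RPKM, the reads per kilobase of a gene's exons relative to the TMM-scaled size of its library, and log2 fold changes come from the edgeR fit on the same scale.

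**Figure D1:**
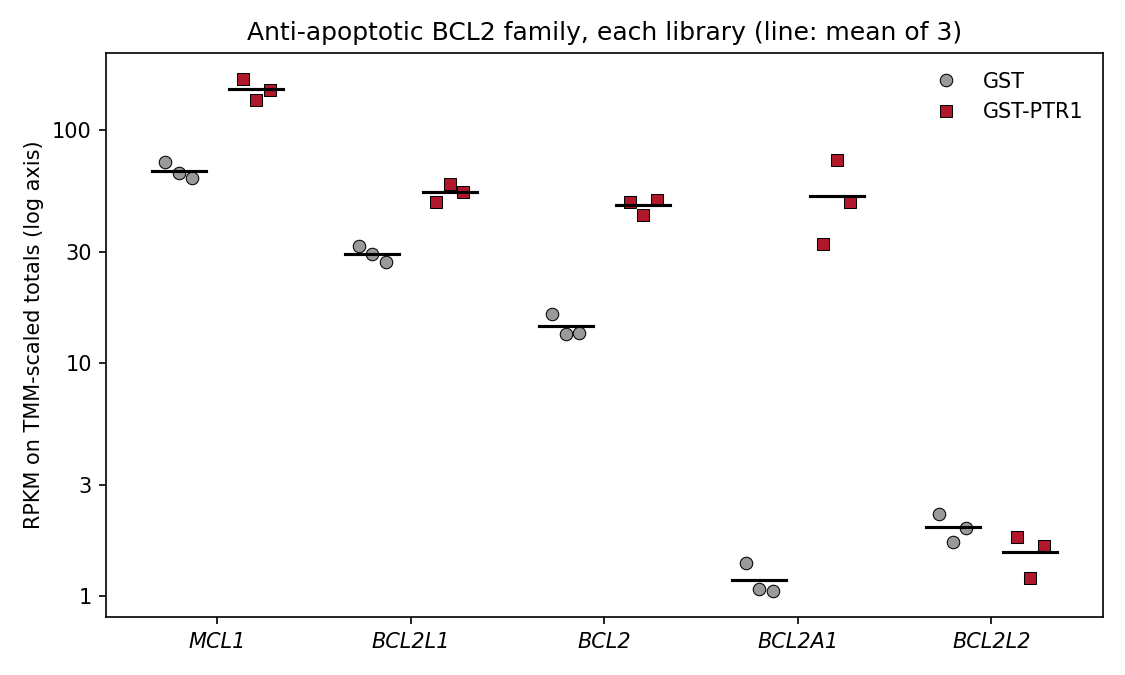
Level of each member in each library as RPKM on TMM-scaled totals (log axis), with GST libraries as circles, GST-PTR1 libraries as squares and the mean of 3 as a line. The treatments are apart for MCL1, BCL2L1, BCL2 and BCL2A1 and overlap for BCL2L2, and BCL2A1 spreads from 32.3 to 74.4 RPKM within GST-PTR1.

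MCL1 encodes the member on which plasma cells rely most, and it had the highest level of the 5 in all 6 libraries. The gene (ENSG00000143384, GRCh37 chr1:150547032-150552066, minus strand) has 3 exons with 4218 bases and shares none with another gene. With GST it stood at 73.0 RPKM in GST003, 65.4 in GST004 and 62.1 in GST005, and with GST-PTR1 at 167 in PTR002, 135 in PTR004 and 149 in PTR005. Every GST-PTR1 library was thus above every GST library, and the lowest treated library was PTR004. The means were 66.8 ± 5.59 and 150.4 ± 15.8 RPKM (SD, n = 3 each), and the log2 fold change was 1.17 ± 0.12 (standard error; edgeR adjusted p = 5.43e-05). The 95% confidence interval of the fold was 1.87 to 2.70. Against a fold change of 2 as the null, edgeR's test did not call MCL1, while it called BCL2 and BCL2A1. Counts were per gene, so the long form of MCL1 and its shorter splice forms were not told apart.

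BCL2L1, which encodes BCL-XL and, by another splice site, the pro-apoptotic BCL-XS, was second by RPKM in every GST library. The gene lies at GRCh37 chr20:30252255-30311792 on the minus strand (ENSG00000171552), with 3314 exon bases in 4 segments. Its levels were 31.9, 29.4 and 27.1 RPKM in GST003, GST004 and GST005, and 49.3, 59.0 and 54.5 RPKM in PTR002, PTR004 and PTR005. The treatments did not overlap, and the smallest treated value was in PTR002. Of the 4 members that rose, BCL2L1 had the smallest log2 fold change, 0.88, with a 95% confidence interval of 0.64 to 1.12. Reads of BCL-XL and BCL-XS were summed in these values.

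BCL2, the founding member and the target of venetoclax, came after BCL2L1 by RPKM in every GST library, though its counts were higher. It spans GRCh37 chr18:60790579-60987361 on the minus strand (ENSG00000171791), and its 7665 exon bases, merged over its annotated transcripts, are the most of the 5. BCL2 had 16.3, 13.3 and 13.5 RPKM in GST003, GST004 and GST005. With GST-PTR1 it had 49.3 RPKM in PTR002, 43.4 in PTR004 and 50.2 in PTR005. The treated libraries were all above the controls and lay close to one another. Their coefficient of variation of 7.68% was the lowest of any member with GST-PTR1 on TMM-scaled totals. With library totals BCL2 varied more than BCL2L1, at 44.6 ± 5.46 against 50.6 ± 2.22 RPKM (SD, n = 3 each). The 95% confidence interval of its log2 fold change of 1.73 was 1.46 to 1.99, which lies above that of BCL2L1.

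BCL2A1, an inducible member normally prominent in activated lymphocytes and myeloid cells, was the lowest of the 5 in every GST library. The gene (ENSG00000140379, GRCh37 chr15:80253231-80263788, minus strand) is short, with 1089 exon bases. With GST it had 25, 29 and 24 counts in GST003, GST004 and GST005, or 1.38, 1.07 and 1.04 RPKM. The 24 counts of GST005 leave the level there between 0.668 and 1.55 RPKM (exact 95% Poisson interval, counting error only). With GST-PTR1 it had 785 counts in PTR002, 3196 in PTR004 and 1463 in PTR005, or 32.3, 74.4 and 49.2 RPKM. No treated library came near a control, and the treated libraries differed among themselves by more than for any other member, with a coefficient of variation of 40.7% against 7.68% to 20.1%. The highest value was in the deepest library, PTR004 with 44688737 counts, and the lowest in PTR002, the shallowest of the treatment with 22874133. The part of depth in this spread was not tested. The log2 fold change was 5.50 with a 95% confidence interval of 4.78 to 6.22, and it was 5.16 without PTR004 and 5.75 without PTR002. In PTR002, MCL1 was at its highest level and BCL2A1 at its lowest of the 3 treated libraries, and in PTR004 MCL1 was at its lowest and BCL2A1 at its highest.

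BCL2L2 encodes BCL-W and was scarce with both treatments. The gene (ENSG00000129473, GRCh37 chr14:23767999-23780968, plus strand) had 157, 178 and 172 counts in GST003, GST004 and GST005 and 166, 196 and 187 counts in PTR002, PTR004 and PTR005. In RPKM these were 2.25, 1.70 and 1.94 with GST and 1.78, 1.19 and 1.63 with GST-PTR1. The treatments overlapped, since GST004 lay below PTR002. The log2 fold change of -0.36 ± 0.19 (standard error; edgeR adjusted p = 0.186) had a 95% confidence interval of -0.77 to 0.05, so that a fall of up to 0.77 on the log2 scale lies within it, while the 1.84-fold rise of BCL2L1 lies outside it. It was -0.18 without PTR004 and -0.55 with library totals (edgeR adjusted p = 0.0614). BCL2L2 was also the only member whose counts were touched by a neighbour on its strand: 813 of its 4189 exon bases (19.4%) also belong to BCL2L2-PABPN1, the readthrough gene that runs on into PABPN1, and reads that overlapped both were left out by the authors' counting. BCL2L2-PABPN1 itself had 2, 4 and 3 counts with GST and 1 in each GST-PTR1 library. Per kilobase of the 3376 unshared bases, BCL2L2 stood at 2.44 RPKM with GST and 1.90 with GST-PTR1. On the opposite strand 4.92% of its exon bases lie under PPP1R3E, which fell by 0.92 on the log2 scale (edgeR adjusted p = 0.00432), and the counting kept the strands apart.

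The stretches before the start sites of BCL2A1, BCL2 and BCL2L1, 3 of the 4 members that rose, were searched for 3 short motifs. RefSeq windows on GRCh38.p14, from 250 bases before to 50 after a start site, were at hand for these 3 members, 4 windows in all. For MCL1, which rose as well, and for BCL2L2 no window was at hand, so they were not searched. The κB consensus was found in none of the 4 windows, on either strand, and in 11.3% of all 35116 windows. The AP-1 sequence TGANTCA, also in none, was found in 7.71% of all. The STAT sequence TTCNNNGAA was found in the window of BCL2A1, at position -168 from its start site, and in 7.66% of all windows. The last 2 sequences read the same on both strands. A match is only a match of letters, and its absence says nothing of sites outside the window. BCL2L1 had a further window, with upstream bases at chr20:31722869-31723118, which is not printed. The upstream 250 bases of the member that rose most and, for 1 of its start sites, of the member that rose least are given 5′ to 3′ on the gene's strand. They are chr15:79971197-79971446 and chr20:31723964-31724213 of GRCh38.p14, with the matched letters in capitals.
BCL2A1: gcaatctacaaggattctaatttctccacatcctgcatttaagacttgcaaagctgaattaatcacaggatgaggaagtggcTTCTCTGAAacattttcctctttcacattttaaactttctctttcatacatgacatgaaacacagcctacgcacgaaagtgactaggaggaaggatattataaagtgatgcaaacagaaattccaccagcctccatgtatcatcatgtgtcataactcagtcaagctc
BCL2L1: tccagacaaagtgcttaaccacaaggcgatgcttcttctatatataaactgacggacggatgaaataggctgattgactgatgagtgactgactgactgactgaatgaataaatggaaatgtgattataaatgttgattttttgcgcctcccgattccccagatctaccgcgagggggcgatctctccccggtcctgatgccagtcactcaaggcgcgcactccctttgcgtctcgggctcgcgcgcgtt

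The summed level of the 5 members rose from 114 ± 9.91 RPKM with GST to 306 ± 7.06 with GST-PTR1 (SD, n = 3 each), 2.69 times as high. The sums were 125, 111 and 106 RPKM in GST003, GST004 and GST005 and 299.6, 314 and 304 RPKM in PTR002, PTR004 and PTR005. The treated libraries thus differed little in their sum although BCL2A1 and MCL1 differed among them. MCL1 accounted for 43.5% of the rise of the summed RPKM, BCL2A1 for 26.5%, BCL2 for 17.3% and BCL2L1 for 12.9%. These parts depend on the division by exon length, which is shortest for BCL2A1 and longest for BCL2. They do not hold for counts. When libraries were scaled by their totals the sums were 122 ± 13.3 and 286 ± 8.01 RPKM. The exact permutation test over libraries gave p = 0.1 (two-sided), the smallest that 3 against 3 allows.

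The make-up of the branch shifted with GST-PTR1. A share within a library does not depend on how libraries are scaled. With GST, MCL1 held 58.5%, 58.9% and 58.8% of the summed RPKM in GST003, GST004 and GST005, a nearly constant part. With GST-PTR1 it held 55.7% in PTR002, 43.2% in PTR004 and 48.9% in PTR005, so each treated library was lower and they were further apart. The share of BCL2A1 went from 1.10%, 0.962% and 0.987% in the GST libraries to 10.8%, 23.7% and 16.2% in PTR002, PTR004 and PTR005. BCL2A1 thus went from the smallest share of the RPKM to about the size of the shares of BCL2L1 and BCL2, which does not hold for counts. BCL2L1 went from 25.9 ± 0.531% to 17.7 ± 1.20% (SD, n = 3 each), although its own level rose. BCL2 went from 12.6 ± 0.524% to 15.6 ± 1.51%, a larger share in spite of the rise of BCL2A1. BCL2L2 went from 1.72 ± 0.166% to 0.503 ± 0.111%.

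**Figure D2:**
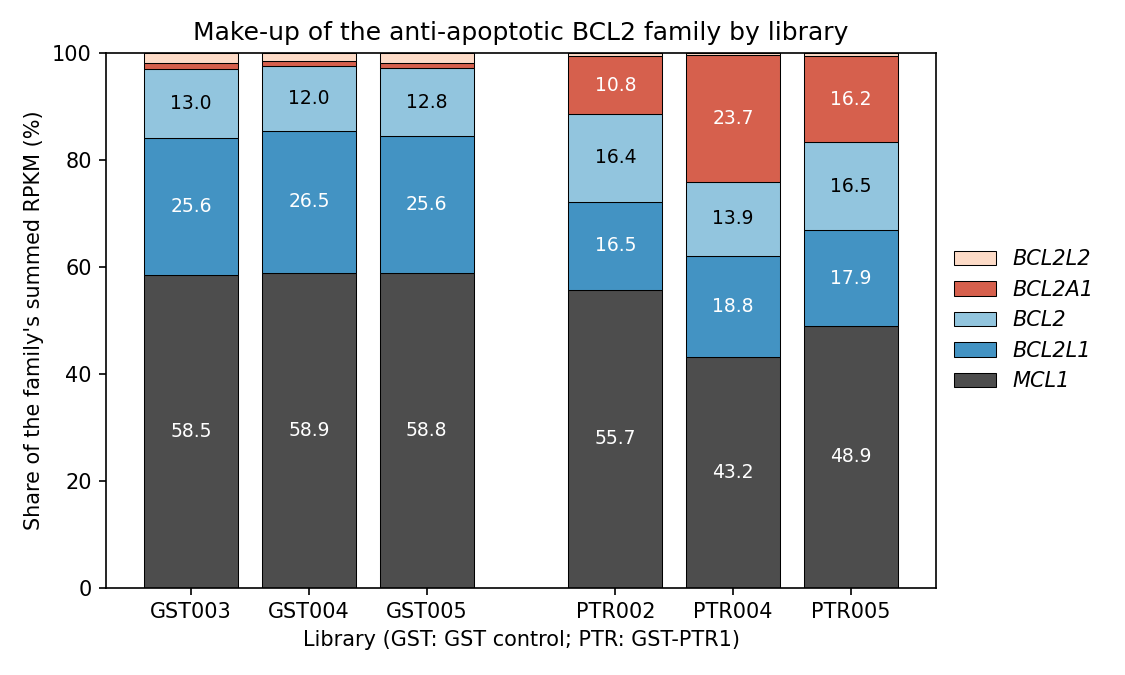
Share of each member in the summed RPKM of the 5 genes, as stacked bars for each library that start at 0 and end at 100%. BCL2A1 takes about 1% in the GST libraries and 10.8% to 23.7% in the GST-PTR1 libraries, while the shares of MCL1 and BCL2L1 are smaller in each GST-PTR1 library than in any GST library.

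The shares of the treatments did not overlap for any of the 5 members, and each exact permutation test gave p = 0.1 (two-sided, 0.1 after Benjamini-Hochberg adjustment over 5), the smallest possible. The shares of a library add up to a fixed whole, so these are not 5 separate results. With the summed level 2.69 times as high, a member whose own level does not change loses share. BCL2L2 lost share although its own level overlapped between treatments and was not called. The effective number of members (the inverse of the summed squared shares, 5 if all were equal) went from 2.33 ± 0.0215 to 3.03 ± 0.353 (SD, n = 3 each), with 2.66 in PTR002, 3.36 in PTR004 and 3.08 in PTR005. The fall of MCL1's share rested on BCL2A1 in the sum: among the other 4 members alone, MCL1 held 59.3 ± 0.199% (GST) and 59.1 ± 2.98% (GST-PTR1), overlapping between treatments (exact permutation p = 1). Among those 4, BCL2 went from 12.7 ± 0.538% to 18.8 ± 0.789% and BCL2L1 from 26.2 ± 0.523% to 21.5 ± 3.12%. Without division by exon length, the share of BCL2A1, which has the shortest exons, went from 0.253 ± 0.0178% to 4.61 ± 2.07% of the family's counts, and that of BCL2, which has the longest, from 22.0 ± 0.814% to 29.4 ± 1.29%. That of BCL2L1 went from 19.6 ± 0.496% to 14.5 ± 1.91%, below BCL2 and above BCL2A1 in every library.

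With GST, the order by RPKM was MCL1, BCL2L1, BCL2, BCL2L2 and BCL2A1 from highest to lowest in all 3 libraries. The ranges of neighbours in that order did not overlap. With GST-PTR1, MCL1 stayed highest and BCL2L2 became lowest in all 3 libraries, both apart from the rest. The ranges of BCL2L1, BCL2 and BCL2A1 overlapped there, and BCL2A1 was second only to MCL1 in PTR004 and below both others in PTR002 and PTR005. By RPKM, BCL2 came close to BCL2L1, with 49.28 against 49.31 in PTR002, and was below it in each of the 6 libraries. This order rests on the division by exon length. By counts alone BCL2 was above BCL2L1 in each of the 6 libraries, and BCL2A1 was below both.

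Ratios between members within a library show the balance without regard to scaling, and their change does not depend on gene length. The log2 ratio of BCL2A1 to MCL1 was -5.73, -5.94 and -5.90 in GST003, GST004 and GST005 and -2.37, -0.86 and -1.60 in PTR002, PTR004 and PTR005. As a linear ratio of RPKM, BCL2A1 went from 0.0173 of MCL1 to 0.328. The log2 ratio of BCL2 to BCL2L1 went from -1.04 ± 0.09 to -0.19 ± 0.23 (SD, n = 3 each), and that of BCL2 to MCL1 from -2.22 ± 0.07 to -1.66 ± 0.10. That of BCL2L2 to MCL1 went from -5.09 ± 0.15 to -6.63 ± 0.18. The smallest change was in BCL2L1 to MCL1, from -1.18 ± 0.02 to -1.47 ± 0.28, a difference of -0.29 that was -0.14 without PTR002 and -0.42 without PTR004. In this pair the highest treated library and the lowest control, both at -1.20, almost met. In all 10 pairs the ratios of the treatments did not overlap, and each exact permutation test gave p = 0.1 (two-sided, 0.1 after adjustment over 10). The 10 ratios are made from 5 genes, so they are not separate results, and BCL2A1, which changed most, enters several of them. Of all genes tested, 19.2% were higher and 21.2% lower without overlap in their own level, and the rate among pairs of other genes was not computed.

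**Figure D3:**
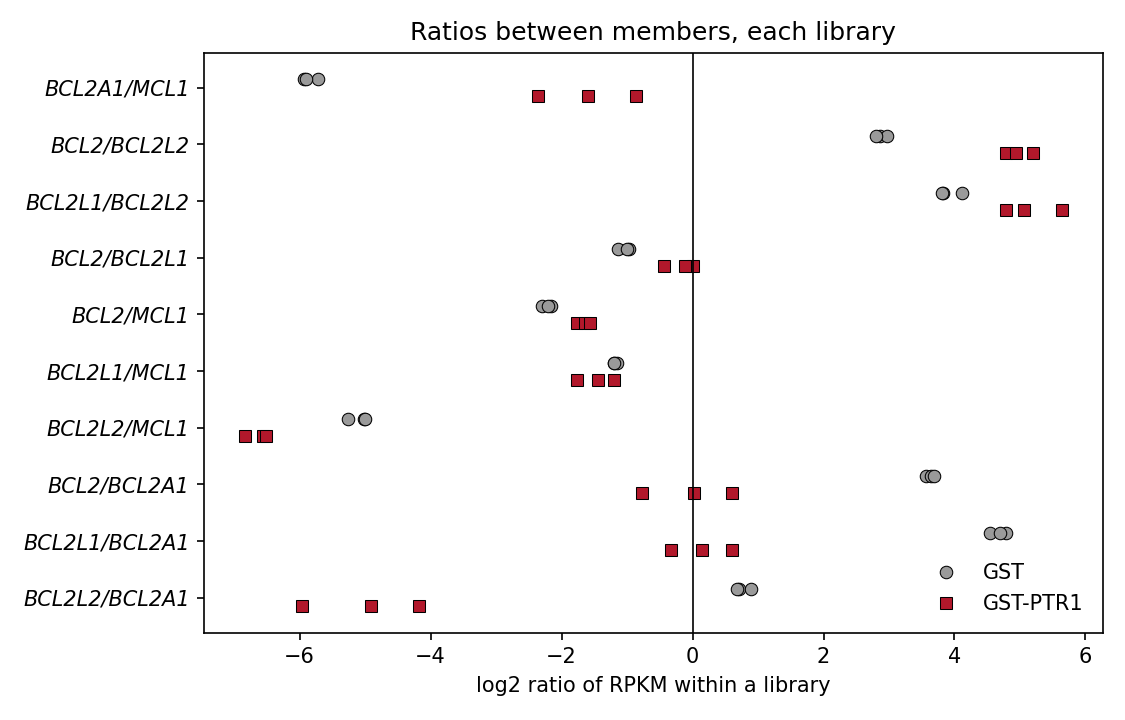
The log2 ratio of RPKM for each of the 10 pairs of members, 1 point per library, GST as circles and GST-PTR1 as squares, ordered by the difference between treatments. BCL2A1/MCL1 moves from about -5.9 to between -2.37 and -0.86, and BCL2L1/MCL1 moves least.

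Genes whose profile over the 6 libraries was most like each member were sought among 13055 others with a symbol and a mean of at least 50 counts, by the distance between log2 CPM values centred on the gene's mean. Closest to BCL2 were STAT3, the transcription factor downstream of IL-6 and IL-10 receptors (distance 0.157, Pearson's r = 0.999), and LAMB3, a laminin chain (0.207). Closest to MCL1 were PPM1K, a mitochondrial phosphatase (distance 0.130), and JUN, a subunit of AP-1 (0.145, r = 0.996). STK19 and SNX11 were closest to BCL2L1 (distances 0.171 and 0.203), and KDM1B and ZNF785 to BCL2L2 (0.129 and 0.147). Closest to BCL2A1 were TNFAIP6, a hyaluronan-binding protein induced in inflammation (distance 0.677, r = 0.999), and C1QB, a chain of complement C1q (0.823, r = 0.998), which rose by a log2 fold change of 6.60 and 7.22. The distances of this pair were larger than for the other members, but this distance grows with the size of a change. All these likenesses are descriptions over 6 libraries that share the treatment contrast, so a high r is common among them.

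Genes that act with these members were read from 5 lists with 31 genes, of which 28 were tested. Of the 28, edgeR called 9 higher, against 9.15% of all genes, and 4 lower, against 11.4%, so the share called lower was near that of all genes. Their median log2 fold change was 0.05, against 0.0065 over all genes, and -0.15 against -0.19 with library totals.

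The BH3-only genes encode the proteins that the 5 members bind and hold back. Of 8 tested, 4 rose and 2 fell, against 9.15% and 11.4% of all genes. BMF rose from 3.40 ± 0.312 to 15.5 ± 1.51 RPKM (SD, n = 3 each), with a log2 change of 2.19. PMAIP1, which encodes NOXA, the partner of MCL-1 and BFL-1, had 8.33 ± 1.68 RPKM with GST and 32.6 ± 6.26 with GST-PTR1, a rise of 1.97 on the log2 scale. BID rose by a log2 fold change of 0.91 and BCL2L11, which encodes BIM, by 0.68 (from 16.6 ± 1.68 to 26.7 ± 2.39 RPKM). HRK fell from 12, 24 and 15 counts in the GST libraries to 6, 7 and 6 in the GST-PTR1 libraries. BBC3, which encodes PUMA, fell by 0.74 on the log2 scale (edgeR adjusted p = 0.0364), and its call was lost without GST003 (adjusted p = 0.0765), GST004 (0.145), PTR002 (0.0632), PTR004 (0.113) or PTR005 (0.0608). BAD and BIK had log2 fold changes of -0.06 and -0.29 and were not called.

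**Figure D4:**
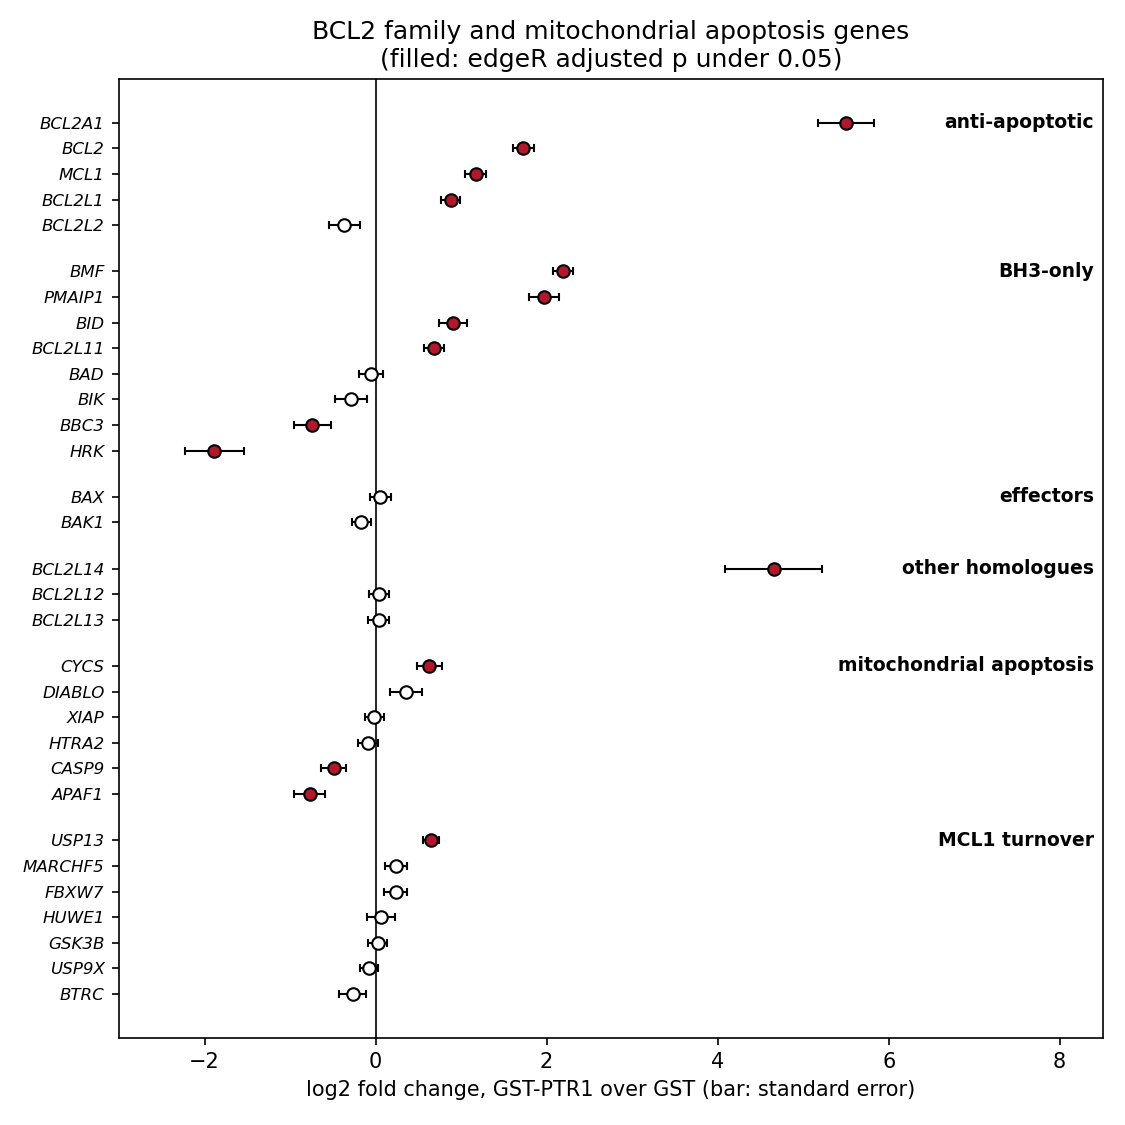
The log2 fold change of GST-PTR1 over GST for the 5 anti-apoptotic members and the other tested genes reported here, grouped by list, with the standard error as a bar and filled points where edgeR's adjusted p was under 0.05. BCL2A1 lies furthest to the right at 5.50, BH3-only genes lie on both sides of 0, and BAX and BAK1 lie near 0.

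The effectors BAX and BAK1, which form the pore, were not called (0 of 2 at an unadjusted p under 0.05 with edgeR on TMM factors, DESeq2 or voom). BAX had 11.5 ± 1.52 RPKM with GST and 11.9 ± 0.538 with GST-PTR1 (SD, n = 3 each), and BAK1 had 15.1 ± 1.04 and 13.5 ± 0.893. Their log2 fold changes were 0.05 and -0.17, and with library totals they were -0.14 and -0.36, where BAK1 had an edgeR adjusted p of 0.0529 and was 1 of 2 at an unadjusted p under 0.05. BOK had 0 counts in every library.

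Among other homologues, BCL2L14 rose from 0, 6 and 0 counts in GST003, GST004 and GST005 to 45, 114 and 69 in PTR002, PTR004 and PTR005 (log2 fold change 4.65, edgeR adjusted p = 0.000196), a value that rests on GST004 and was 8.99 without it, where the remaining controls are at 0 and the value is set by the prior count. BCL2L12 and BCL2L13 both had a log2 fold change of 0.04 and were not called. BCL2L10, another anti-apoptotic homologue, had at most 2 counts in any library, and with BCL2L15 it did not pass the expression filter.

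Downstream of the mitochondrion, CYCS, which encodes cytochrome c, rose from 31.7 ± 4.99 to 49.0 ± 6.85 RPKM (SD, n = 3 each), by 0.63 on the log2 scale. APAF1, the scaffold of the apoptosome, fell from 0.910 ± 0.0864 to 0.538 ± 0.103 RPKM (SD, n = 3 each), by 0.77 on the log2 scale. CASP9, the initiator caspase it recruits, fell by 0.49 on the log2 scale (edgeR adjusted p = 0.0382) and lost its call without GST004 (adjusted p = 0.121), GST005 (0.109), PTR002 (0.105) or PTR005 (0.110). XIAP, DIABLO and HTRA2 were not called, at -0.02, 0.36 and -0.09.

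MCL-1 protein is also set by its turnover, and of 7 genes for ubiquitin ligases, deubiquitinases and the kinase GSK3B that act on it, 1 was called, no larger a share than the 20.6% of all genes. USP13, a deubiquitinase reported to stabilise MCL-1, rose from 6.60 ± 0.337 to 10.3 ± 0.631 RPKM (SD, n = 3 each), or by 0.65 on the log2 scale (edgeR adjusted p = 0.000995). The ligase gene HUWE1 had 23.2 ± 5.33 and 24.3 ± 3.70 RPKM, and MARCHF5, FBXW7, BTRC, USP9X and GSK3B were likewise not called, with log2 fold changes from -0.27 to 0.24.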

How the data were processed

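RNA-Seq libraries of RPMI8226 cells (3 with GST, 3 with GST-PTR1) were strand specific. The authors deposited raw counts, whole numbers of reads assigned to each gene by featureCounts 1.5.0-p1 (reverse strand, Ensembl release 75, GRCh37), where reads with several places or genes were left out; the aligner is not given in the sources used here. Per the labels, hg19, FastQC, Subread and limma also belong to their processing. Exon length per gene, the other deposited column used, is in bases.

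Treatments were compared in R 4.3.3 with edgeR 4.0.16 (TMM, filterByExpr, glmQLFit, glmQLFTest, Benjamini-Hochberg adjustment over 16926 genes). The standard error is the absolute log2 fold change over the square root of F, and intervals use the t quantile at the test's degrees of freedom. RPKM used TMM-scaled totals and the deposited lengths. Log2 CPM had a prior count of 2. Shares, sums and ratios were compared with exact permutation tests over libraries (scipy 1.17.1), two-sided. The edgeR, DESeq2 and voom fits were checked on simulated counts, and the permutation tests were not. The simulation changed far fewer genes than were called here, by a fixed size and in random directions. It therefore gives no error rate for these calls. No pair of libraries within a treatment was alike within sampling noise (smallest chi-square per gene 8.31). DESeq2 1.42.0 and limma 3.58.1 (voom) served as alternatives.

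Named were the 5 members, genes that share at least 10% of a member's exon bases or lie opposite its exons, the 2 smallest adjusted p-values and all calls of each list, and the 2 most alike genes per member. Members and lists were chosen with earlier results of these data known. The other listed genes are named so that each is accounted for, except 2 that count in the totals over the lists and are not reported here. Fits of GST004, GST005, PTR004 and PTR005, whose columns share numbers, were chosen after seeing the data.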

Additional observations from a re-analysis of the deposited data

How the results depend on the processing

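The calls of BCL2, BCL2L1, BCL2A1 and MCL1, and the absence of a call for BCL2L2, held in the 14 alternatives run for each, which were 2 other scalings, 2 other tests, 2 other filters, leaving out each library and the fits of 4 libraries. The log2 fold changes ranged from 1.53 to 1.83 for BCL2, 0.68 to 1.01 for BCL2L1, 0.98 to 1.26 for MCL1, 5.16 to 5.87 for BCL2A1 and -0.55 to -0.18 for BCL2L2. The lowest value of BCL2, BCL2L1 and MCL1 came with library totals. Tested against a fold change of 2, 2 members were called in place of 4, BCL2 and BCL2A1. The number of other apoptosis genes called was 13. It was 3 when tested against a fold change of 2, and 11 to 13 with the other scalings, tests and filters, in the 4 libraries or without 1 library.

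Of the differences in share, counts in place of RPKM gave 7.31 points for BCL2, -5.05 for BCL2L1, 4.36 for BCL2A1 and -5.49 for MCL1. Leaving BCL2A1 out of the sum gave 6.01 for BCL2, -4.68 for BCL2L1 and -0.18 for MCL1. The unshared exon length gave -1.51 for BCL2L2. The main differences were 2.98, -8.19, 15.9, -9.45 and -1.22 points for BCL2, BCL2L1, BCL2A1, MCL1 and BCL2L2. The difference in the summed RPKM was 192, and 164 with library totals. Leaving out 1 library gave 188 to 198.

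The log2 fold changes of BAX and BCL2L12, not called, turned to -0.14 and -0.16 with library totals. Leaving out 1 library gave -0.049 (without GST005) to 0.13 for BAX, -0.0098 (without GST005) to 0.12 for BCL2L12 and -0.47 to 0.033 (without PTR005) for CD14, a myeloid marker also not called. The cause was not tested.

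In GST004, GST005, PTR004 and PTR005, blocked by their column numbers, the replicate block left 4 members called, as without it, and the log2 fold change of MCL1 was 1.16 in both. No paired analysis was possible because the columns of all 6 libraries cannot be matched to the replicate numbers of the samples. Depth limits BCL2A1 in GST and BCL2L2, and the values of transcript forms and of protein were not measured here.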
